A study of Mus musculus with 10 samples.

Results

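Open chromatin of embryonic thymic epithelium was compared with that of the day 6 fraction labelled mTEC1, using 6 of the 10 ATAC-seq libraries of the study. ATAC-seq marks open chromatin by letting a transposase insert sequencing adapters into accessible DNA. The embryonic libraries were 2 of embryonic day 15 (E15) and 2 of embryonic day 17 (E17), and the day 6 libraries were 2 of mTEC1. By their labels all 6 came from wild-type mice of the C57BL/6 strain, with no transgene or treatment named, and held sorted thymic epithelial cells (TEC). They describe thymus digested with Liberase TH and DNase and peaks of nucleosome-free chromatin. The titles do not say how mTEC1 was gated and name no fraction for the embryonic cells. The peak names in the deposited lists use other words, hi for the embryonic cells and eTEC for mTEC1, and no source used here explains either word. Age and sorted fraction therefore cannot be told apart. No label says whether the 2 libraries of a group came from separate animals or litters, so the spread between them may be technical.

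The authors deposited 1 peak list per library, and the 6 lists were merged into 253173 regions wherever peaks overlapped or touched. A region was called in a library if that library had any peak in it. Regions called in all 6 lists are named retained here. Those in all 4 embryonic lists and neither mTEC1 list are named lost, and those in both mTEC1 lists and no embryonic list are named new. These names describe peak calls only. The files hold no read counts, so read depth is unknown, and a missing call does not show closed chromatin. Each comparison was therefore repeated with every list cut to its 71327 strongest peaks, the length of the shortest list, ranked by the deposited −log10 q. These are called the lists of equal length below. A bulk peak list cannot tell fewer cells of a type from weaker opening in each cell.

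Thymic epithelium forms the scaffold in which T cells develop, and its cortical and medullary branches arise from common embryonic progenitors under the forkhead factor Foxn1. Cortical TEC attract progenitors with Ccl25, commit them to the T lineage with the Notch ligand Dll4, and select them on peptides made by the thymoproteasome subunit Psmb11 and the protease Prss16. Medullary TEC attract positively selected thymocytes with Ccl21a, respond to RANK (Tnfrsf11a) and CD40 signals, and display tissue-restricted antigens under Aire and Fezf2. Later medullary stages resemble cells of peripheral tissues, such as keratinocytes (involucrin, Ivl) and tuft cells (Pou2f3). Open chromatin at promoters tends to be shared between cell types, whereas distal elements are more often cell-type specific.

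The promoters of 6 genes show what the classes look like as sequence. They are the 250 bases before the annotated gene start from RefSeq on GRCm38.p6, written 5′ to 3′ on the strand of the gene. Capitals mark the bases inside the called region. Foxn1, Krt18 (a simple-epithelium keratin) and an internal start of Ccl25 lay in lost regions, Dll4 lay in a retained region, and Cd3g (a T cell receptor complex chain) and Themis (a thymocyte selection protein) lay in new regions.
Foxn1: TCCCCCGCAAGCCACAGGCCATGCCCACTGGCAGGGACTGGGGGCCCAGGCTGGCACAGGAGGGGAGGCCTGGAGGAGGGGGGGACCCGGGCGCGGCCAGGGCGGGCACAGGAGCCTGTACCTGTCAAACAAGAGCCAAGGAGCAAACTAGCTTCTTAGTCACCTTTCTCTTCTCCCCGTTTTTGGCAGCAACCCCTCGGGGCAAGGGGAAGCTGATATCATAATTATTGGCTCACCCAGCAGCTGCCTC
Krt18: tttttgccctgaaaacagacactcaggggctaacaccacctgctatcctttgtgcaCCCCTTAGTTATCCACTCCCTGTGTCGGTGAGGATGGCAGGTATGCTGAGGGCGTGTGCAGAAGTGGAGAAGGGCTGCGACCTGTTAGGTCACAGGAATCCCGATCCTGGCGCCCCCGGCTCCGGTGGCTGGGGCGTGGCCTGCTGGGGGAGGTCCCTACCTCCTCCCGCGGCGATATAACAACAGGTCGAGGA
Ccl25: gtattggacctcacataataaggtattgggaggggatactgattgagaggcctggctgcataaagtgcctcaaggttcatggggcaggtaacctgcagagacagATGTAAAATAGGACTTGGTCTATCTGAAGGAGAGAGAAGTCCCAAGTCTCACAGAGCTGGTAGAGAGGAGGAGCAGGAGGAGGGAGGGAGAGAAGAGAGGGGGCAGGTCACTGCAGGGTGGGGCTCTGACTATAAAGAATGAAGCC
Dll4: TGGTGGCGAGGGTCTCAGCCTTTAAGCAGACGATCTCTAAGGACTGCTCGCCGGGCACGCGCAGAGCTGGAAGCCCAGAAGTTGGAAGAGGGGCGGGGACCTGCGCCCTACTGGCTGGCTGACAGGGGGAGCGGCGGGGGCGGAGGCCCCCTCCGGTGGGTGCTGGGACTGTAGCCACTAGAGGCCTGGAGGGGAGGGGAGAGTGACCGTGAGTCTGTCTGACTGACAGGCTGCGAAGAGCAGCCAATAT
Cd3g: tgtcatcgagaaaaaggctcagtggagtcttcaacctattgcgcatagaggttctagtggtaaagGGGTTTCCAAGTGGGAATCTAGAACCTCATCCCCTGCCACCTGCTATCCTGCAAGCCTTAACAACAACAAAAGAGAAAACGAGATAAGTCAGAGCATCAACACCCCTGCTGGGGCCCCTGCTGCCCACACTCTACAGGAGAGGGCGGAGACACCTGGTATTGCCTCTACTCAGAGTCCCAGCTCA
Themis: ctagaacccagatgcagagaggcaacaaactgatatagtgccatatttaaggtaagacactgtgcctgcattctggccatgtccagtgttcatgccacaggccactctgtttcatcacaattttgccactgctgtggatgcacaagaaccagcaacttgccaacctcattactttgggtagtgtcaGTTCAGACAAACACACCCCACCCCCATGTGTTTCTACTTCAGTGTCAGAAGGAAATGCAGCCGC
The Foxn1 stretch lies at chr11:78386609-78386858 on the minus strand, and all 250 bases were inside the lost region chr11:78386154-78387050. Krt18 is shown at chr15:102027966-102028215 on the plus strand, with 194 bases inside its region. Ccl25 is shown at chr8:4349338-4349587 on the plus strand, with 146 bases inside. Dll4 is shown at chr2:119325534-119325783 on the plus strand, where all 250 bases lay in the retained region chr2:119324377-119326019. Cd3g is shown at chr9:44980432-44980681 on the minus strand, with 185 bases inside its new region, and Themis at chr10:28668110-28668359 on the plus strand, with 64 bases inside. The G and C content of the 6 stretches was 63.2% at Foxn1, 60.4% at Krt18, 51.6% at Ccl25, 65.6% at Dll4, 51.6% at Cd3g and 48% at Themis.

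The embryonic lists held 105204 and 101357 peaks (E15) and 86237 and 151646 peaks (E17), and the mTEC1 lists held 82281 and 71327. Peaks of mTEC1 were narrower and weaker. Their median widths were 135 and 115 bp, against 185 to 200 bp in the embryo, and 8.91% and 11.6% of them had a −log10 q of at least 5, against 41.7% to 48.8%. The mTEC1 lists also held more peaks on chromosome X (6.36% and 4.13%, against 2.24% to 2.47%) and on chromosome Y (1.43% and 0.910%, against 0.0913% to 0.117%). Neither range overlapped that of the embryonic lists. Over the 15 ways to choose 2 of 6 libraries, the exact permutation test (two-sided) cannot go below p = 0.0667. In this exact permutation test 7 of 9 measures reached that value (adjusted p = 0.0857), the number of peaks gave p = 0.2, and the share of peaks at gene ends gave p = 0.867. With lists of equal length, defined above, that last share was 19.3% to 20.3% in the embryonic lists and 14.5% and 17.5% in mTEC1. The groups then did not overlap, and the exact permutation test gave p = 0.0667 for it and for each of the 8 measures that equal length allows.

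The mTEC1 lists differed from each other more than the embryonic lists did in their overlap with the other age. Of mTEC1 replicate 1 peaks, 30.3% lay in a region with an embryonic call, against 58.4% of mTEC1 replicate 2 peaks, and 62.2% and 32.9% lay in regions called in that list only. Of the regions called in all 4 embryonic lists and in 1 mTEC1 list, 16153 were called in replicate 2 and 2144 in replicate 1. The counts of the classes are therefore also given against each mTEC1 list alone, while their positions, strengths, promoters and gene lists rest on the pair.

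Of all merged regions, 6.59% were retained (16687), 12.1% were lost (30727) and 2.43% were new (6140). In the lists of equal length, which merged into 177313 regions, 8.78% were retained (15569), 9.56% lost (16955) and 3.56% new (6314). Lost regions outnumbered new ones in both settings. Regions in any embryonic list and no mTEC1 list did so only with all peaks, at 126722 against 80826 in mTEC1 lists alone, and at equal length the order turned, at 60434 against 77669. Against mTEC1 replicate 1 alone, 18821 regions were retained, 46895 lost and 57463 new. Against replicate 2 alone the counts were 32841, 32873 and 29745. Lost regions outnumbered new ones against replicate 2 and against the pair, but not against replicate 1. The classes make unequal demands, since a lost region needs a call in 4 lists and a new one in 2.

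Seen from the embryo, 65711 regions were called in all 4 lists. Of these, 25.4% were retained, 46.8% were lost and 27.8% were called in 1 mTEC1 list. With equal length the shares of 46930 such regions were 33.2%, 36.1% and 30.7%. Seen from mTEC1, 24725 regions were called in both lists, of which 67.5% were retained and 24.8% were new (66.2% and 26.8% of 23530 with equal length). Most regions on which both mTEC1 lists agreed were therefore already called throughout the embryonic lists. Cutting the lists left 54.9% of the lost regions lost, 88.0% of the new regions new and 93.3% of the retained regions retained.

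Whether an embryonic region was called again at day 6 moved with its strength. The regions called in all 4 embryonic lists were divided into 10 equal parts by their mean strength percentile within the embryonic lists, which ranks peaks by −log10 q. In the weakest part 3.41% were retained and 79.0% lost, and in the strongest part 76.0% were retained and 5.52% lost. This order held at each step. For regions in both mTEC1 lists, ranked within the mTEC1 lists, the new share was 75.3% in the weakest part and 0.728% in the strongest. New regions were also weak in absolute terms. Their median −log10 q was 1.99 in mTEC1 replicate 1 and 1.46 in replicate 2, and 2.65% and 1.48% of them had a value of at least 5. Lost regions had median values of 4.43, 4.40, 4.35 and 7.93 in the E15 and E17 lists, and 41.6% to 74.4% had a value of at least 5. How much of the lost class depth could account for was not tested.

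**Figure D1:**
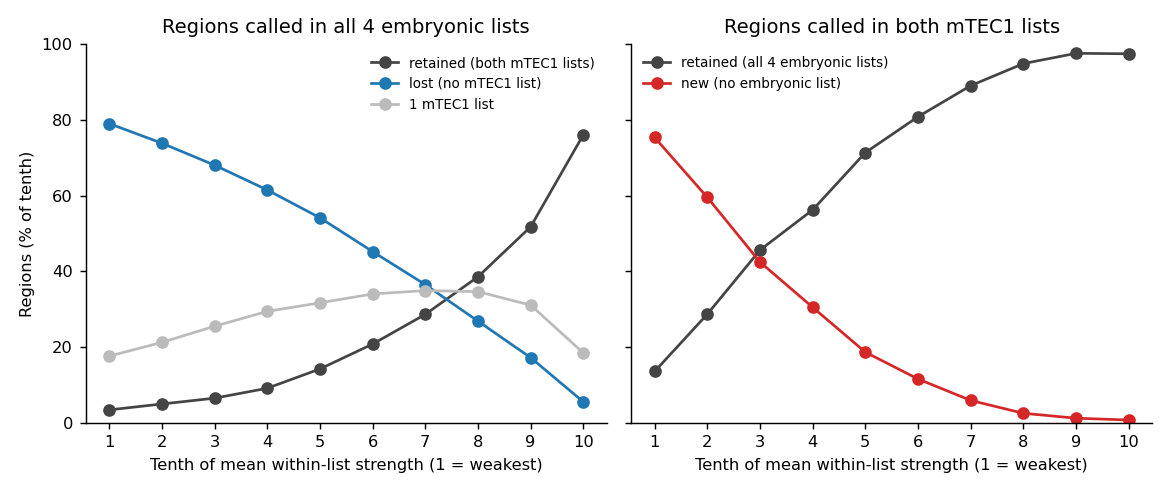
Share of regions (percent, y axis) in 10 equal parts by mean within-list strength (x axis, 1 is weakest) for regions called in all 4 embryonic lists (left) and in both mTEC1 lists (right), all peaks. Points are shares of each part with no replicate error. The lost share runs from 79.0% to 5.52% and the new share from 75.3% to 0.728%.

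Strength and position were linked, so the shares were also read by position. Among regions no more than 1 kb from a gene end, the lost share went from 74.5% in the weakest part to 0.747% in the strongest. Inside gene spans it went from 81.3% to 9.92%, and elsewhere from 77.5% to 8.94%. At equal embryonic strength, regions at gene ends were thus called in mTEC1 more often than distal ones. In the strongest part, 95.4% of regions at gene ends were retained, against 61.1% inside genes and 59.5% elsewhere.

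The 3 classes lay in different places. Retained regions lay within 1 kb of a gene end in 53.2% of cases, inside a gene in 23.3% and elsewhere in 23.6%. For lost regions these shares were 8.76%, 48.3% and 43.0%, and for new regions 1.47%, 28.7% and 69.8%. All merged regions gave 8.15%, 39.8% and 52.1%. The median width was 689 bp for retained, 356 bp for lost and 285 bp for new regions. These are widths of merged peaks from 6, 4 and 2 lists, so they cannot be compared as widths of open sites. Of new regions, 35.5% lay over 100 kb from any protein-coding gene, against 12.1% of lost and 4.0% of retained regions.

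New regions resembled, in position, the regions called in 1 mTEC1 list and no embryonic list. That group of 74686 regions had 1.53% at gene ends, 29.5% inside genes and 69.0% elsewhere. Chromosome X held 7.87% of new regions and 7.31% of these single-list regions, against 1.93% of lost and 2.41% of retained regions. Chromosome Y held 1.5% and 2.0%, against 0.0195% of lost regions. Of the 80826 regions called in mTEC1 lists only, 7.60% were in both lists, whereas 24.2% of the regions called in embryonic lists only were in all 4. Any part of sex or of cell number in the chromosome X and Y shares was not tested, since the labels give neither.

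**Figure D2:**
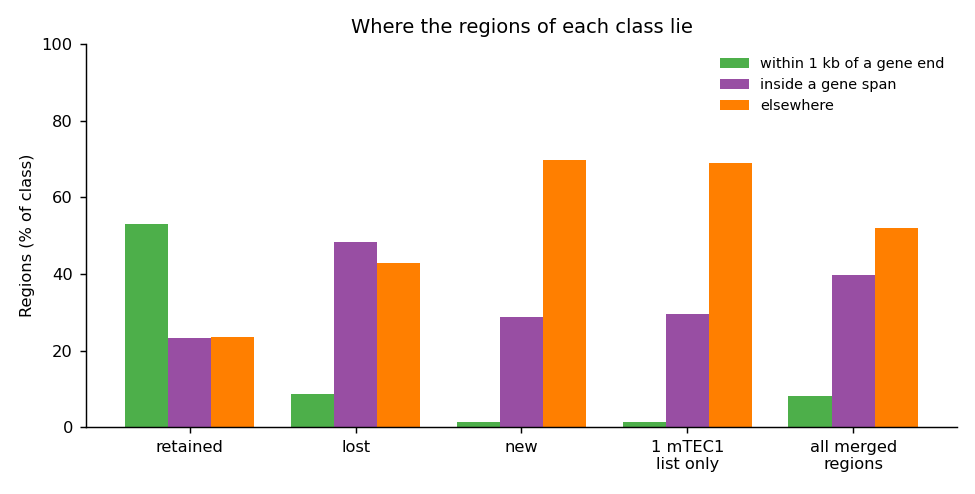
Share of each class (percent, y axis) within 1 kb of a gene end, inside a gene span or elsewhere, for retained, lost and new regions, regions in 1 mTEC1 list only, and all merged regions (all peaks). Bars are shares of regions with no replicate error. Gene ends hold 53.2% of retained, 8.76% of lost and 1.47% of new regions.

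The other day 6 lists, 2 of mTEC4 and 2 of mTEC2, took no part in defining the classes. Retained regions were called in 67.3% and 84.2% (mTEC4) and in 97.2% and 79.4% (mTEC2) of cases, and 98.9% were called in at least 1 of the 4 lists. Lost regions were called in 3.42% and 11.1% (mTEC4) and in 42.9% and 12.1% (mTEC2). At least 1 of the 4 lists held 50.9% of the lost regions, and all 4 held 0.391%. A lost region was therefore often called in some other day 6 list, most often in mTEC2 replicate 1, the longest of those lists. New regions were called in 41.3% and 33.8% (mTEC4) and in 31.1% and 11.9% (mTEC2), and 68.4% in at least 1 list. In the mTEC4 lists new regions were called more often than lost ones in both replicates, while in mTEC2 replicate 1 lost regions were called more often.

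**Figure D3:**
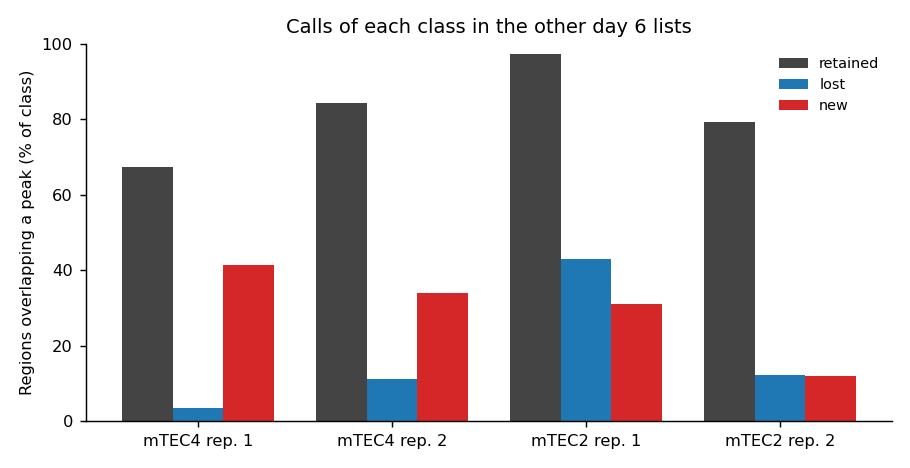
Share of retained, lost and new regions (percent, y axis) that overlap a peak in each of the 4 day 6 lists not used to define the classes (x axis), all peaks. Bars are shares of regions with no replicate error. Lost regions reach 42.9% in mTEC2 replicate 1 and 3.42% in mTEC4 replicate 1.

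Promoters were mostly retained or never called. Of 21263 RefSeq promoter windows (250 bases before to 50 after a start, 17492 genes), 43.9% overlapped a retained region, 5.77% a lost region and 0.0941% a new region. With lists of equal length the shares were 42.8%, 2.65% and 0.141%. Lost promoter windows thus numbered 1226 with all peaks and 564 at equal length, and new ones 20 and 30. Of the 336 genes of the 24 gene lists used below, 102 had a retained window, 24 a lost window and 2 a new window (Cd3g and Themis). Not every listed gene has a window. Of the 17492 genes with a window, 8068 had a retained, 1086 a lost and 17 a new one. At equal length 95, 9 and 2 listed genes had such windows, against 7868, 512 and 27 of the 17492. These counts over all genes are the background for each promoter named.

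Epithelial genes were found with retained as well as lost promoter windows. Epcam, Krt8, Elf3, Grhl1, Cldn4 and Klf4 were among those with a retained window, in both settings. Listed genes with a lost promoter window included several epithelial ones. They were Foxn1, Krt14 (a basal keratin), Krt18, Ovol2 (an epithelial zinc-finger factor), the cornified-envelope transglutaminase Tgm1, the internal start of Ccl25, and Cxcl12, a chemokine for progenitors. Others were the medullary gene Cd80, the NF-kB pathway gene Traf1, the tuft cell genes Trpm5 and Ptgs1, the ciliated cell genes Deup1 and Mcidas, and Jag2, Notch3, Wnt5b and Foxi3. The rest were mesenchymal (Col1a2, Fbn1, Twist1), endothelial (Flt1, Kdr) and muscle genes (Des, Myog). At equal length 9 of the 24 remained lost, namely Ccl25, Deup1, Flt1, Jag2, Krt18, Notch3, Tgm1, Trpm5 and Wnt5b. At the Krt18 promoter the −log10 q was 7.82 and 6.84 for E15 and 10.1 and 13.0 for E17. No mTEC1 list had a call there, while 3 of the 4 other day 6 lists did. The Foxn1 promoter region had weaker values, 2.67 and 2.63 at E15 and 6.89 and 6.65 at E17, with no call in any day 6 list.

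New promoter windows lay at 17 genes. Beside Cd3g and Themis these included Traf3ip3, Arhgap30, Arhgap45, Sla2, Samsn1, Il16, Tmc8 and Dennd1c, which were picked out after their values were seen. The −log10 q over all 17 ran from 1.16 at Pitpnm2 to 6.51 at Il16, with 1.65 and 1.30 at Themis and 2.01 and 2.04 at Cd3g in mTEC1 replicates 1 and 2. The Themis region was called in 3 and the Cd3g region in 2 of the 4 other day 6 lists.

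Retained and lost promoter windows differed in short sequence motifs, searched on both strands. The ETS-type letters CCGGAAG occurred in 21.1% of retained, 5.06% of lost and 11.6% of all windows. The GC box GGGCGG occurred in 72.2%, 55.3% and 46.2%, and the NRF1 core GCATGCG in 7.53%, 3.26% and 4.44%. The AP-1-type letters TGANTCA occurred in 3.57% of retained, 7.10% of lost and 6.99% of all windows, and the TATA box TATAAA in 5.16%, 8.08% and 12.6%. Median G and C content moved with the classes, at 62.7% in retained, 60% in lost and 56.3% in all windows, and its part in the motif shares was not tested. The remaining motifs were the CCAAT box CCAAT (40.6%, 31.7% and 38.2%), the YY1-type letters AAGATGG (7.53%, 4.16% and 6.24%), the forkhead-type letters TGTTTAC (2.27%, 1.63% and 3.01%) and the RUNX-type letters TGTGGTT (2.93%, 2.85% and 4.71%). In the printed stretches, Foxn1 held 1 GC box and 1 CCAAT box, Ccl25 held 2 CCAAT boxes and 1 TATA box, Dll4 held 2 GC boxes and 1 CCAAT box, and Cd3g held 1 GC box. Those of Krt18 and Themis held none of the 9 motifs. A match of letters is not a bound site.

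Each region was then assigned to the nearest protein-coding gene within 100 kb. Of 21887 genes, 51.9% were nearest to a retained region, 48.6% to a lost region and 13.9% to a new region. With lists of equal length these shares were 50.4%, 37.0% and 14.9%. Gene lists are read against these values. Of the 10644 genes with a lost region, 62.2% also had a retained region and 4021 did not. Longer genes had more regions. Genes with 1 lost region had a median span of 19.8 kb and those with 5 or more a median of 161 kb.

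**Figure D4:**
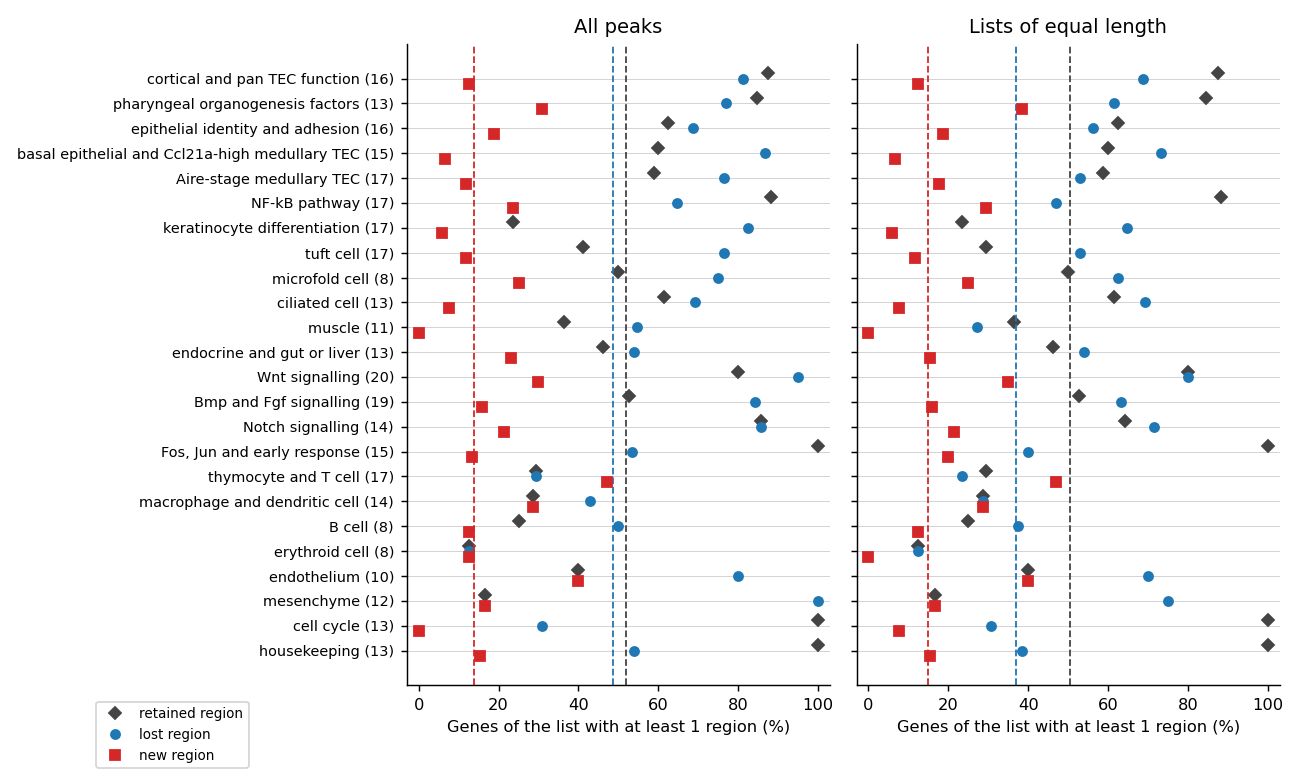
Genes of each list with at least 1 retained (diamonds), lost (circles) or new (squares) region (percent of genes, x axis), for all peaks (left) and lists of equal length (right). The number of genes is in brackets, and dashed lines of the same colours give the shares over all 21887 genes, which are 51.9%, 48.6% and 13.9% on the left and 50.4%, 37.0% and 14.9% on the right. In the thymocyte and T cell list 47.1% of genes have a new region in both settings.

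Cortical and general TEC genes kept at least 1 shared region and also had regions without an mTEC1 call. Of 16 genes, 14 had a retained region, 13 a lost region and 2 a new region, with a median of 3 lost regions per gene, against a median of 0 over all genes. Regions within 10 kb of these genes summed to 82 to 121 per embryonic list and to 25 and 49 in mTEC1 replicates 1 and 2. The mTEC1 mean was 39.2% of the embryonic mean, against 56.2% over all genes. With equal length the sums were 60 to 68 against 25 and 49, or 57.4% against 77.9% over all genes.

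Foxn1 had 7, 8, 8 and 10 called regions within 10 kb in E15 replicates 1 and 2 and E17 replicates 1 and 2, and 1 and 6 in mTEC1 replicates 1 and 2. The 2 mTEC1 lists differed widely at this gene, and both lay below the embryonic lists. At equal length the counts were 5, 6, 8 and 8 against 1 and 6, so the groups overlapped. Of 12 merged regions there, 5 were lost and 1 was retained. The retained one, chr11:78373922-78375128 inside the gene, had a −log10 q of 9.44, 10.5, 8.11 and 15.2 in the embryonic lists and 3.02 and 3.10 in mTEC1. The strongest lost one, chr11:78347489-78347619, had values of 7.15, 4.91, 15.4 and 25.6 and lies outside Foxn1, inside the span of a neighbouring gene. At equal length 3 regions were lost and 1 was retained.

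Psmb11 had 2, 2, 4 and 5 regions in the embryonic lists and 1 and 2 in mTEC1, so its groups touched. No region over its own promoter was in every list. The promoter region, chr14:54624946-54625627, had a −log10 q of 15.3, 13.3, 15.7 and 33.5 in the embryo. It was also called in mTEC1 replicate 2 (1.34) and in 2 other day 6 lists. The only retained region in the Psmb11 window, chr14:54617631-54618403, lies before the gene, within 1 kb of an end of another gene. It had a −log10 q of 10.1, 7.28, 10.2 and 6.29 in the embryo and 2.87 and 2.77 in mTEC1. Prss16 had 6, 5, 6 and 6 regions in the embryo and 2 in each mTEC1 list, with no overlap. Of its 7 regions, 3 were lost and 2 retained, and both counts were the same at equal length. Ccl25 had 6, 6, 5 and 6 regions in the embryo and 2 and 4 in mTEC1, again without overlap. At equal length the counts of 5, 5, 4 and 5 against 2 and 4 touched, and 2 regions were lost there. The region over its gene start, chr8:4324620-4325531, was retained at 25.5, 25.4, 20.3 and 20.3 in the embryo and 6.44 and 18.2 in mTEC1, and 3 regions were lost. Dll4 had 4, 3, 4 and 5 regions against 3 and 2, so its groups touched, with no lost and 2 retained regions. At equal length its counts were 3, 2, 2 and 2 against 3 and 2.

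**Figure D5:**
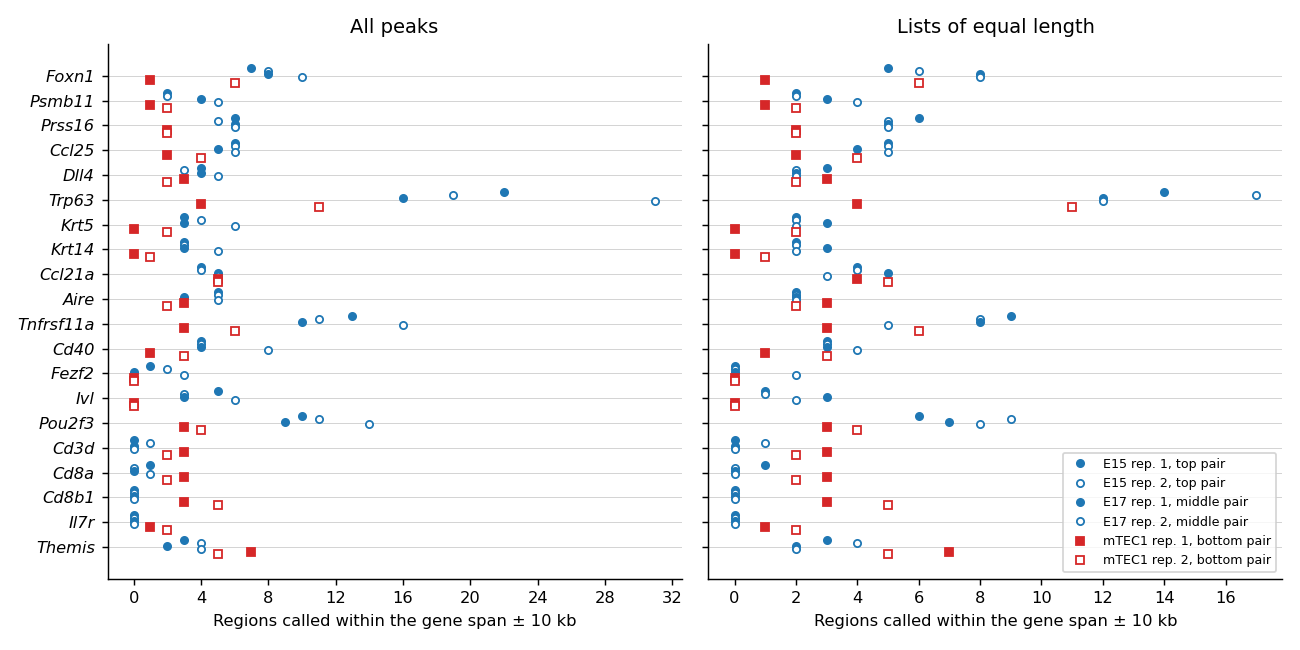
Number of regions called within 10 kb of a gene span (x axis) in each of the 6 libraries (points), for 20 genes, with all peaks (left) and lists of equal length (right). Circles are embryonic and squares mTEC1 libraries, with filled symbols for replicate 1 and open symbols for replicate 2. With all peaks the mTEC1 symbols lie left of all embryonic ones at Foxn1, Prss16, Ccl25, Trp63, Krt5, Krt14, Tnfrsf11a, Cd40, Ivl and Pou2f3. They lie right of them at Cd3d, Cd8a, Cd8b1, Il7r and Themis, which were chosen from a list of 17 thymocyte and T cell genes. All of these but Il7r had a new region, which adds calls in mTEC1 alone. Bcl11b, Lck and Ptcra of the same list, not shown, had fewer regions in each mTEC1 list than in any embryonic list.

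Basal epithelial and Ccl21a-high medullary genes had a retained region in 9 of 15, a lost region in 13 and a new region in 1. Krt5 had 3, 4, 3 and 6 embryonic regions and 0 and 2 in mTEC1. Krt14 had 3, 3, 3 and 5 against 0 and 1, and neither keratin had a retained region. At equal length Krt5 had 2, 2, 3 and 2 against 0 and 2, so its groups touched. Ccl21a differed from them, with 4, 4, 5 and 5 regions in the embryo and 5 in each mTEC1 list, and with 3 retained and no lost regions in its 10 kb window. Near-identical Ccl21 gene copies exist in mice, so mapping there is uncertain. Trp63, a factor of epithelial stem cells, had 22, 19, 16 and 31 regions against 4 and 11, without overlap. A single region inside it, chr16:25746838-25747153, was retained (21.1, 22.9, 17.4 and 29.5 in the embryo, 2.99 and 6.08 in mTEC1) and 4 were lost. At equal length the counts were 14, 17, 12 and 12 against 4 and 11, with 1 lost region. The adhesion gene Dst had the most lost regions of all listed genes (16), over a span of 401 kb.

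In the Aire-stage medullary list 10 of 17 genes had a retained, 13 a lost and 2 a new region. Aire had 5, 5, 3 and 5 embryonic regions and 3 and 2 in mTEC1, so the groups touched. At equal length it had 2 in each embryonic list against 3 and 2, so the excess in the embryo was gone. Of the 9 regions in its window, 2 were lost, 1 was new and none was retained. The region over its promoter, chr10:78043427-78043806, had a −log10 q of 9.34, 8.23, 12.4 and 19.2 in the embryo. It was also called in mTEC1 replicate 2 (4.64) and in all 4 other day 6 lists, but not in mTEC1 replicate 1. The lost region chr10:78028230-78028419 had a −log10 q of 11.1, 9.25, 16.5 and 31.3. The new one, chr10:78024725-78025098, had 2.11 and 1.79 in mTEC1 and no call in any other day 6 list. Tnfrsf11a had 13, 11, 10 and 16 regions against 3 and 6, and 6 of 21 were lost. At equal length its counts of 9, 8, 8 and 5 against 3 and 6 overlapped, with 2 lost. A region within 1 kb of a gene end, chr1:105780393-105780822, was retained at 8.87, 13.6, 7.30 and 16.9 in the embryo and 2.73 and 6.19 in mTEC1. Cd40 had 4, 4, 4 and 8 regions against 1 and 3 (3, 3, 3 and 4 against 1 and 3 at equal length, where the groups touched), with a retained region within 1 kb of a gene end (chr2:165055226-165056764) and a lost one inside a gene (chr2:165070435-165070639). Fezf2 had 1, 2, 0 and 3 regions in the embryo and 0 in both mTEC1 lists, and no region of it was lost because none was in all 4 embryonic lists.

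Genes of keratinocyte differentiation had few retained regions (4 of 17) and many lost ones (14 of 17, 82.4%), with 1 gene with a new region. Summed regions were 53 to 84 in the embryonic lists and 16 and 31 in mTEC1. At equal length 64.7% of these genes still had a lost region. Ivl had 5, 3, 3 and 6 regions in the embryo and 0 in both mTEC1 lists. Its 2 lost regions were weak (−log10 q of 1.81 to 5.24), and neither was lost at equal length. Perp, a desmosome protein, had the most lost regions of the list (6). In the tuft cell list 7 of 17 genes had a retained, 13 a lost and 2 a new region. Pou2f3 had 10, 11, 9 and 14 regions against 3 and 4, without overlap in either setting, with 3 lost and 1 retained. A lost region was found at 6 of 8 microfold (75%) and 9 of 13 ciliated cell genes (69.2%). One was found at 6 of 11 muscle (54.5%) and 7 of 13 endocrine, gut and liver genes (53.8%), near the 48.6% of all genes. At equal length these 4 shares were 62.5%, 69.2%, 27.3% and 53.8%, against 37.0% of all genes. A retained region was found at 4, 8, 4 and 6 of these genes with all peaks, where all genes gave 51.9%.

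Signalling genes were often near lost regions. Over all genes 48.6% had a lost, 51.9% a retained and 13.9% a new region. Of 20 Wnt genes, 19 had a lost, 16 a retained and 6 a new region, with a median of 2.5 lost regions. Lrp6, a Wnt co-receptor, had 7 lost regions and 22, 19, 19 and 30 called regions in the embryo against 3 and 11 in mTEC1. Of 19 Bmp and Fgf genes, 16 had a lost and 10 a retained region, led by the receptor Bmpr2 with 7 lost regions. Of 14 Notch genes, 12 had a lost and 12 a retained region, led by the coactivator Maml2 (9) and the ligand Dll1 (7). Of 17 NF-kB genes, 15 had a retained and 11 a lost region, with 10 at Nfkb1, a subunit of the factor itself. At equal length the genes with a lost region were 16 of 20 (Wnt, 80%) and 12 of 19 (Bmp and Fgf, 63.2%). They were 10 of 14 (Notch, 71.4%) and 8 of 17 (NF-kB, 47.1%), against 37.0% of all genes. Among 13 pharyngeal organogenesis factors, 10 had a lost and 11 a retained region. Of 16 genes of epithelial identity and adhesion, 11 had a lost, 10 a retained and 3 a new region.

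Markers of other cell types were read the same way, against the same shares over all genes. Each of the 12 mesenchymal genes had a lost region and 2 had a retained one, and 9 of 12 had a lost region at equal length. Col1a2, a collagen chain, had 6 lost regions and 6, 4, 6 and 6 regions against 0 and 1. Regions at mesenchymal genes summed to 34 to 68 in the embryo and to 18 in each mTEC1 list. The mTEC1 mean was 41.6% of the embryonic mean, against 56.2% over all genes. Of 10 endothelial genes, 8 had a lost, 4 a retained and 4 a new region. Emcn, an endothelial surface protein, had the most new regions of all listed genes (3). Of 8 erythroid genes 1 had a lost, 1 a retained and 1 a new region, and of 8 B cell genes 4 had a lost and 1 a new region. Of the 12 mesenchymal genes 1 had no region in both mTEC1 lists, and of the 10 endothelial genes none. How much other cells contributed to these calls was not tested.

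Cell cycle and housekeeping genes stood at the other end. Each of the 13 cell cycle genes had a retained region, 4 had a lost one and none had a new one. All 13 housekeeping genes and all 15 genes of the Fos, Jun and early response list had a retained region, and 53.8% and 53.3% of them had a lost one, near the 48.6% of all genes. Fos, a subunit of AP-1, had 4 retained and 6 lost regions by nearest gene.

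Genes of thymocytes and T cells showed the opposite balance to TEC genes. Of 17 genes, 8 had a new region (47.1%, against 13.9% of all genes), and 5 each had a lost and a retained region. The count of 8 was the same at equal length, against 14.9% of all genes. The 8 genes with all peaks were Cd3d and Cd3g, Cd8a and Cd8b1, the costimulatory receptor Cd28, the recombinase Rag1, Themis and the T cell factor Tcf7. Cd3d and Cd3g, and Cd8a and Cd8b1, are neighbours, so their windows share regions. Summed regions at the 17 genes were 42 to 68 in the embryonic lists and 49 and 54 in mTEC1. At equal length they were 35 to 41 against 49 and 54, or 139% of the embryonic mean, where all genes gave 77.9%. None of the 17 was without a region in both mTEC1 lists, and 2 (Cd8b1 and Il7r) had none in any embryonic list.

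Cd8b1 had no region in any embryonic list and 3 and 5 in mTEC1 replicates 1 and 2. Its 2 new regions, chr6:71337797-71337952 and chr6:71341270-71341408, had a −log10 q of 2.29 and 3.76 and of 1.55 and 3.6. Cd8a had 1, 0, 0 and 1 regions in the embryo against 3 and 2. Cd3d had 0, 1, 0 and 0 against 3 and 2, and Il7r, the interleukin 7 receptor, had 0 throughout the embryo against 1 and 2. Themis had 3, 4, 2 and 4 against 7 and 5. The groups did not overlap at any of these genes. All of them but Il7r were named above for a new region, which adds calls in mTEC1 alone. The gap between the groups at those genes is therefore in part set by that choice. Not all T cell genes followed. Bcl11b, a factor of T lineage commitment, had 14, 15, 12 and 23 regions against 5 and 9 and had 9 lost regions. At equal length it had 8, 12, 9 and 9 against 5 and 9, with overlap. Lck, a T cell kinase, had 6, 5, 7 and 8 against 4 and 3, and its groups touched at equal length (4, 4, 7 and 7 against 4 and 3). Rag1 had 2 in every list, although it was named above for a new region. The counts here are of regions within 10 kb, whereas new regions were assigned by nearest gene within 100 kb. Ptcra had 3, 3, 3 and 4 against 1 and 2, and Zap70 had 2, 2, 2 and 4 against 0 and 2. Cd8b1 and Cd28 regions were each called in 2 of the 4 other day 6 lists.

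Macrophage and dendritic cell genes had a new region in 4 of 14, a lost one in 6 and a retained one in 4. Adgre1, the F4/80 antigen, had 1, 1, 0 and 0 regions in the embryo against 6 and 3 in mTEC1, with 2 new regions. Itgam, an integrin of myeloid cells, had 1, 1, 2 and 3 against 3 and 5, so its groups touched, with 2 new regions. Summed over the list, regions were 35 to 55 in the embryo and 39 and 37 in mTEC1 with all peaks, and 27 to 34 against 36 and 37 at equal length. Lyz2 was at 0 in both mTEC1 lists. The part of other cells in the new class was not tested.

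Beyond the lists, Auts2 (33), Nav2 (30), Dlg2 (28), Rbms3 (27) and Nfia (26) had the most lost regions of all genes. Auts2 had 79, 79, 72 and 123 called regions in the embryo against 12 and 27 in mTEC1. The most new regions lay at Ptprd (9), Ccser1 (8), Nkain2 (7) and Dmd (7), genes that span 2271, 1203, 1208 and 2390 kb. Genes with 3 or more new regions, 170 in all, had a median span of 406 kb, against 17.2 kb over all genes. Ptprd had 23 lost regions as well. Dmd on chromosome X had 26, 15, 8 and 26 regions against 55 and 21, so its groups overlapped. At equal length it had 9, 5, 6 and 9 against 48 and 21, without overlap.

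The strongest lost regions by mean rank lay mainly away from gene ends. They included chr10:107800096-107800244 inside Otogl (−log10 q of 18.8, 26.5, 29.7 and 60.4), chr2:33316687-33316960 inside Ralgps1 (23.9, 21.3, 30.0 and 44.3) and chr3:121736537-121736771 near F3, the tissue factor gene (22.1, 24.2, 24.8 and 41.5). The regions at Otogl, Ralgps1 and F3 were called in 1, 2 and 3 of the other 4 day 6 lists. The strongest new regions were short, such as chr10:114737311-114737447 inside Trhde (98.0 and 24.6 in mTEC1 replicates 1 and 2) and chr5:110074484-110074559 inside Gm35315 (65.1 and 15.0). The latter is 76 bp wide and was called in all 4 other day 6 lists. The top-ranked retained regions lay mostly far from genes and were very strong in every list, such as chr12:97061431-97061790 with 1989, 2014, 1466 and 1867 in the embryo and 1063 and 888 in mTEC1. They were not typical of the retained class, of which 53.2% lay within 1 kb of a gene end. The median −log10 q of that class was 10.9 to 17.2 in the embryonic lists and 3.54 and 4.26 in mTEC1.

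Regions within 1 kb of a microRNA hairpin were few. Of 1005 RefSeq hairpins, 9.25% were within 1 kb of a retained and 6.47% within 1 kb of a lost region, and 8.86% and 2.89% at equal length. Mir200c and Mir141, neighbours of the epithelial miR-200 family, shared a lost region, and Mir205, an epithelial miRNA, had a retained one. Their mature arms are given from RefSeq with the seed, bases 2 to 8, in capitals, because a shared seed groups miRNAs into families. Of the miRNAs looked up, Mir200b and Mir429 share the seed of Mir200c, and Mir200a that of Mir141. Mir200a, Mir200b and Mir429 had no merged region within 1 kb of their hairpins in either setting, so they also lacked an embryonic call there.
miR-200c-3p: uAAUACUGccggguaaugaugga
miR-141-3p: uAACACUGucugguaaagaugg
miR-205-5p: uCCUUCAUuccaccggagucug
The shared lost region chr6:124718143-124718990 covers the Mir200c hairpin and lies 158 bp from Mir141. Its −log10 q was 5.85 and 10.3 at E15 and 5.42 and 12.5 at E17. Both mTEC1 lists lacked it, in both settings, although all 4 other day 6 lists called it. A further region near Mir141, chr6:124716964-124717115, was called in all 4 embryonic lists and in mTEC1 replicate 1. The Mir205 region, chr1:193508272-193508556, had 13.0, 11.2, 6.88 and 23.6 in the embryo and 4.01 and 1.99 in mTEC1. Mir375 also had a lost region.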

How the data were processed

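ATAC-seq peak lists of 6 libraries were used: 2 of E15, 2 of E17 and 2 of day 6 mTEC1, with 4 further day 6 lists for comparison. Per the submitters' processing notes, the authors' tools were cutadapt, Bowtie2, Picard and MACS2, on mm10. Versions, parameters and any shift of read ends are not given in the sources used here. Peaks were called once per library. For each peak the authors deposited a score, a fold enrichment ratio, a −log10 p and a −log10 q. The deposited score equalled 10 times −log10 q with decimals dropped in at least 99.9881% of peaks per list. The lowest deposited −log10 q was 1.0002, and read depth is unknown.

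Peaks of the 6 lists that overlapped by 1 bp or touched were merged with Python 3.11.15, numpy 2.4.6 and pandas 2.3.3, checked on simulated data. Gene spans and promoters came from RefSeq GRCm38.p6, and all 336 listed symbols matched, 1 by an older symbol. Library measures were compared by exact permutation tests, with Benjamini-Hochberg adjustment over measures. Each p-value is the share of arrangements of these libraries with a difference of means at least as large. It says nothing beyond these libraries. Replicate numbers are shared by the groups in the labels. Named were 15 chosen TEC genes, listed genes with the most lost or new regions, the 5 genes of all with the most of each, and the 10 strongest lost and new regions. A gene that this rule names is not reported here. Members and lists were chosen with earlier results of these data known. Alternatives were lists cut to equal length by q or fold, higher minimum q, a minimum coverage of the region, wider merging, autosomes alone, other gene limits, leaving out each library, and a replicate block. The microRNA comparison and the chromosome Y share were added after seeing the data.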

Additional observations from a re-analysis of the deposited data

Results flagged for a closer look

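The 4 embryonic libraries, E15 and E17 as 1 group, were checked for a library far from the other 3 in 32 sets of values. The cutoff marks about 1 in 20 sets by chance only for continuous values from a single group. This group mixes ages, and where 3 counts of regions tie, a difference of 1 region is already marked. The number of marked sets therefore cannot be compared with chance. A library stood apart in 9 sets. E17 replicate 2 covered 46.1 Mb, against 25.6 to 28.6 Mb in the others. With lists of equal length it covered 27.3 Mb, against 22.1 to 22.4 Mb, 98.5% of its peaks had a −log10 q of at least 5, against 59.0% to 61.5%, and 0.0659% of its peaks lay on chromosome Y, against 0.0995% to 0.105%. The same library had 5 regions at Krt14, where the others had 3, and 8 at Cd40, where the others had 4. E17 replicate 1 had 5 regions at Ccl25, where the others had 6, and 3 at Aire, where the others had 5. E15 replicate 2 had 5 regions at Prss16, where the others had 6.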

How the results depend on the processing

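With all peaks, 30727 regions were lost, 6140 were new and 16687 were retained, and 8.76% of lost and 1.47% of new regions lay at gene ends. Lists of equal length gave 16955 lost regions, with shares at gene ends of 8.01% of lost and 1.85% of new regions when cut by q, and 17142 lost regions, 7.18% and 2.48% when cut by fold. With a −log10 q of at least 2, 3 or 5, new regions numbered 1037, 236 and 59, at 727, 180 and 43 genes. The shares at gene ends were then 10.002%, 13.1% and 19.8% of lost and 2.80%, 2.12% and 5.08% of new regions. Retained regions numbered 8425 at 3 and 4273 at 5, at 7330 and 3922 genes. Where a peak had to cover at least 50% of its region, 3302 were new (1957 genes) and 2924 retained (2540 genes), with 21.6% of lost and 2.06% of new regions at gene ends. Leaving out each library gave 31187 to 46895 lost, 6289 to 57463 new and 16745 to 32841 retained regions. Genes then numbered 10726 to 13020 (lost), 3124 to 11843 (new) and 11360 to 14632 (retained), and the shares at gene ends were 8.07% to 10.8% of lost and 1.26% to 2.0% of new regions. The highest counts of lost and new regions came without mTEC1 replicate 2. The difference in the share of peaks at gene ends, mTEC1 minus embryonic, was -3.88 percentage points with lists of equal length and -0.645 with all peaks. Leaving out each library gave -2.99 to 1.70, reversing without E17 replicate 1 (0.156) and without mTEC1 replicate 1 (1.70). With a replicate block the difference in peak number stayed at -34307 (exact permutation p = 0.222), and the smallest p this test can give was 0.111. Deviations of same-numbered libraries in regions per gene had correlations of -0.0367, -0.0161 and 0.0212 over genes. Each group gives only 1 such contrast, so these values cannot tell whether the numbers mark a shared litter or day. Merging within 100 bp, autosomes alone and a gene limit of 25 kb left these counts within 1.5 times. Among the counts of lost or new regions at named genes, 47 moved and 79 did not with lists of equal length. The numbers were 47 and 79 without mTEC1 replicate 1, and 69 and 57 without mTEC1 replicate 2. With a −log10 q of at least 5, 72 moved and 54 did not. The cause of the changes was not tested. Unknown read depth limits every statement about a missing call.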
